A study of Mus musculus with 24 samples.

Results

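The levels of 10 genes that set the passage of a cell from G1 into S phase were followed in mouse retinal organoids (MROs) as they aged in culture from D20 to D30. The genes are the D cyclins Ccnd1, Ccnd2 and Ccnd3, the E cyclins Ccne1 and Ccne2, the cyclin dependent kinase inhibitors Cdkn1a, Cdkn1b, Cdkn1c and Cdkn2c, and the retinoblastoma gene Rb1. They were taken by symbol from the 126602 features in the count tables, of which 46603 are annotated genes, and all 10 were found and passed the filter on low counts. MROs are small pieces of retinal tissue grown from pluripotent stem cells, here the wildtype mouse embryonic stem cell line E14Tg2a. The 24 libraries, all of 1 independent experiment, are single organoids, 6 for each of the ages D20, D22, D25 and D30. All carry the genotype label Control, were made by the trisection protocol, in which young organoids are cut into parts, were given the synthetic retinoid EC23 during an early part of that protocol, before the ages sampled, and received water, the solvent, as their labelled treatment. Each library holds RNA of a whole organoid with all its cell types, so fewer cells of a type and less RNA per cell cannot be told apart. The p-values rest on the spread between organoids of this 1 experiment.

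D cyclins bind the kinases Cdk4 and Cdk6 in G1 and start the phosphorylation of Rb1, the pocket protein that holds E2F transcription factors inactive. E cyclins with Cdk2 complete that step and open S phase. The Cip/Kip inhibitors p21 (Cdkn1a), p27 (Cdkn1b) and p57 (Cdkn1c) act on several cyclin and kinase pairs, whereas the Ink4 protein p18 (Cdkn2c) acts on Cdk4 and Cdk6. In the mouse retina Ccnd1 is known as the main D cyclin of dividing progenitors, and p27 and p57 are known to mark cells that leave the cycle.

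The 10 genes did not follow a shared course over the 10 days of sampling. Ccnd1, Cdkn1a, Cdkn1c and Cdkn1b fell from D20 to D30, Ccnd2 rose, and the other 5 did not pass the threshold for that interval. Calls are adjusted p-values below 0.01 from edgeR's quasi-likelihood test, adjusted by Benjamini-Hochberg over all 46949 features tested, and levels are read counts scaled to library size in CPM with TMM factors (normalized CPM). The 5 members called between D30 and D20 stand beside a background of 26.8% of all features called, or 41.8% of the annotated genes. In the joint test for any difference among the 4 timepoints 8 members passed, against 27.2% of all features. For the steps between neighbouring timepoints 2 members were called for D22 against D20 (1.90% of features), 3 for D25 against D22 (5.28%), and for the last step, D30 against D25, 1 (3.51%). Among the annotated genes alone the shares called were higher, at 3.32%, 10.2% and 7.38% for the same steps. The features include 30696 assembled loci, and no share of annotated genes alone was taken for the joint test or for overlap. The members whose organoids did not overlap between timepoints numbered 2 for D22 against D20 (2.45% of features), 2 for D25 against D22 (5.46%), 1 for D30 against D25 (4.29%) and 3 for D30 against D20 (18.9%). The median log2 fold change of the 10 members from D20 to D30 was -0.41, beside -0.04 over all features.

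**Figure D1:**
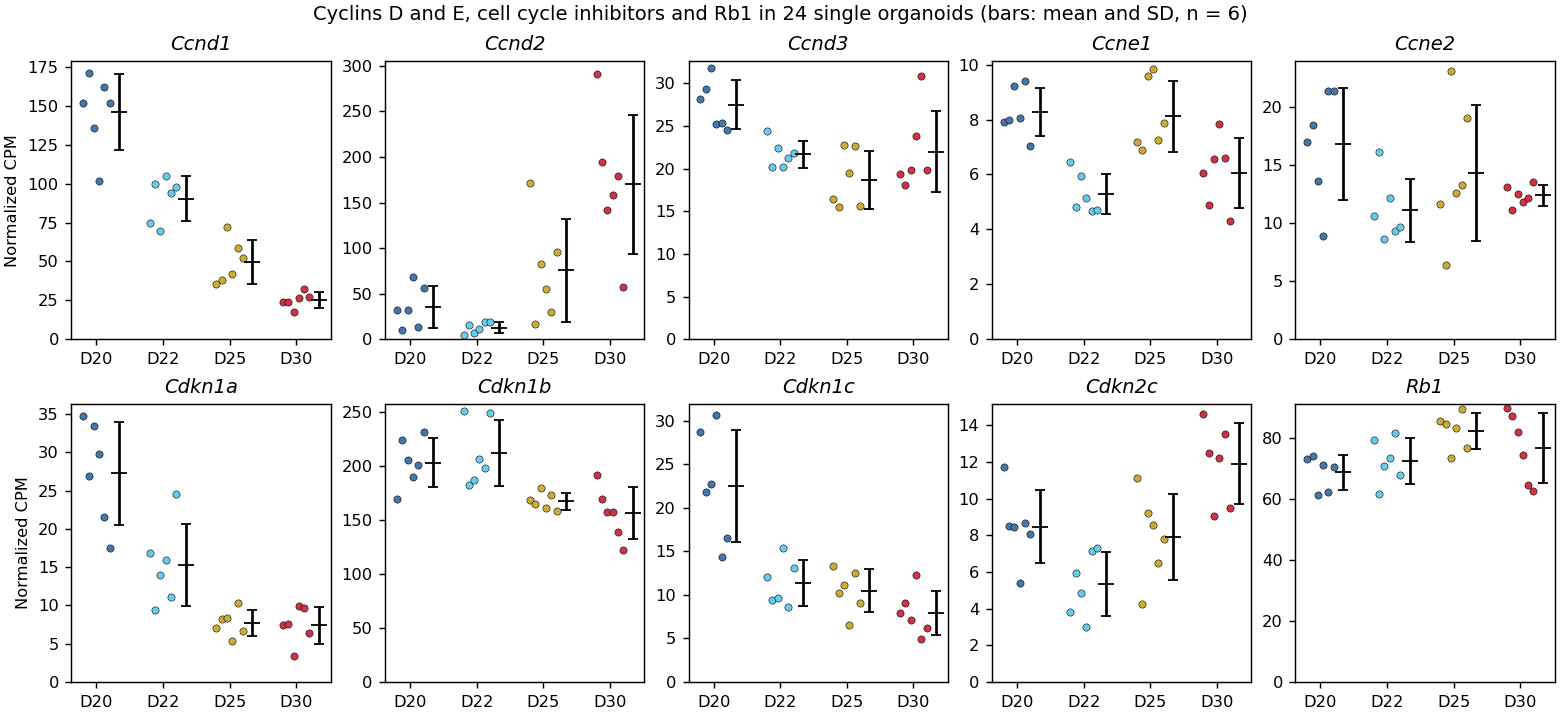
Normalized CPM (y axis, linear, from 0) of each of the 10 genes in each of the 24 organoids, by timepoint (x axis), with the mean and SD of 6 organoids as a bar to the right of the points. Ccnd1 stepped down at every timepoint, Ccnd2 reached 291 in 1 D30 organoid, and Rb1 stayed between 61.1 and 89.7 in all of them.

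The libraries held 13634846 to 19477108 counted reads each, so 3 counts correspond to 0.154 to 0.220 CPM, and the lowest count of any member in any organoid was 44 reads, for Cdkn2c. Such limits cover counting error only. Marker lists were set beside the retinal label. No gene of the retinal progenitor, Müller glia and rod lists was at 0 in all 6 organoids of any timepoint. The same held for the forebrain type neuron, mesenchyme and oligodendrocyte lineage lists, so this does not tell retina from other tissue. The summed rod markers rose from 999 ± 318 to 9159 ± 2271 normalized CPM (SD, n = 6) between D20 and D30, and the microglia markers summed to at most 1.31. Markers of other tissues varied widely among organoids of the same age. The summed forebrain type neuron markers ran from 17.4 to 210 at D20, from 11.7 to 322 at D25 and from 11.2 to 222 at D30, the pigment epithelium markers from 23.3 to 2668 at D30, and the mesenchyme markers from 66.4 to 294 at D30. The pigment epithelium sum was mostly 1 gene, Ttr, with 262 of a mean of 288 at D25 and 987 of 1015 at D30. Rpe65, Mlana and Best1 averaged at most 0.400 at D30. Omissions by pigment epithelium markers below used this sum, and so ranked organoids of these ages mainly by Ttr.

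Among the D cyclins, Ccnd1 (chr7:144929931-144939925, minus strand, GRCm38) was the most abundant at the start. At D20 its normalized CPM ran from 102 to 171 with a median of 152, at D22 from 69.8 to 105 with a median of 95.8, at D25 from 35.4 to 72.3 with a median of 47.1, and at D30 from 17.3 to 32.6 with a median of 25.1. Every D30 organoid was below every D25 organoid, while single organoids of D20 and D22, and of D22 and D25, overlapped. The log2 fold change was -0.69 ± 0.16 (SE) from D20 to D22 with an adjusted p of 0.00745, -0.86 ± 0.16 from D22 to D25 with an adjusted p of 0.000505, and -0.98 ± 0.16 from D25 to D30 with an adjusted p of 0.000114 in edgeR's test. From D20 to D30 it fell by 2.53 ± 0.17 on the log2 scale (adjusted p = 3e-13), a 5.79-fold lower level in the later organoids. The call for the first step was lost without replicate 1, 2, 3, 5 or 6 of D20 or replicate 1, 2, 3 or 5 of D22, with a log2 fold change of -0.72 to -0.64 and an adjusted p of 0.0120 to 0.0281 in those 9 fits, and with the organoids highest in forebrain or pigment epithelium markers left out, whereas the later steps kept theirs without any single organoid. The summed retinal progenitor markers moved the same way, from 918 ± 144 at D20 to 297 ± 45.6 at D30 (SD, n = 6), and their part in the fall of Ccnd1 was not tested. The opposite strand gene LTO1 shares 23.4% of the exon bases of Ccnd1, and the strand setting of the counting is not given in the sources used here. LTO1 itself did not pass the test (-0.17, adjusted p = 0.213), at a mean of 44.6 normalized CPM for D20 and 39.7 for D30.

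Ccnd2 (chr6:127125162-127152193, minus strand) rose over the whole interval, unlike Ccnd1, and was the most variable of the 10 genes. Its normalized CPM ran from 9.94 to 68.3 with a median of 32.2 at D20, and from 4.90 to 18.7 with a median of 13.2 at D22. It then ran from 17.4 to 172 with a median of 68.8 at D25, and from 57.8 to 291 with a median of 168 at D30. The D25 organoid with the least Ccnd2 lay inside the range of D22, and the D30 organoid with the least lay inside the range of D20, so that neither pair of timepoints was fully separate. The rise from D22 to D25 was 2.59 ± 0.47 on the log2 scale (adjusted p = 0.000440), or 6.01-fold, and that from D20 to D30 was 2.27 ± 0.46 (adjusted p = 0.000180), or 4.82-fold. The steps from D20 to D22 (-1.49 ± 0.46, adjusted p = 0.0538) and from D25 to D30 (1.17 ± 0.44, adjusted p = 0.117) did not pass the threshold.

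At each age, the organoids with the most and the least Ccnd2 were set beside markers of other cells. The ranks of these extreme organoids in those markers matched for some lists and ages and not for others. Forebrain sums of organoids between them are given as well. The D25 organoid with the most Ccnd2, at 172, also had the highest forebrain type neuron sum of its age, at 322, and the organoid with the least, at 17.4, had the lowest, at 11.7. At D30 the organoid with 291 had the highest forebrain sum, at 222, and the highest Müller glia sum, at 4841. The organoid with 57.8 had the lowest of both, at 11.2 and 1624, and the lowest mesenchyme sum, at 66.4. The organoid with 291 was also highest in the retinal progenitor sum, at 356, and the oligodendrocyte lineage sum, at 103. Its top rank was thus not particular to the forebrain and Müller glia lists. The oligodendrocyte sum was highest in the top Ccnd2 organoid of D25 as well, at 38.2. In those of D22 and D20 it ranked 5 and 6 of 6, at 33.6 and 35.8. The D25 organoid with the most Ccnd2 had the lowest Müller glia sum of its age, at 1107, below the 1149 of the organoid with the least, and ranked 4 of 6 in mesenchyme, at 39.7. At D22 the organoid with the most Ccnd2, at 18.7, ranked 3 of 6 in the forebrain sum, at 24.2, and in the Müller glia sum, at 812, and highest in mesenchyme, at 27.9. The forebrain sums above it, 27.7 and 29.0, were those of the organoids next in Ccnd2, at 18.6 and 15.4. At D20 the organoid with the most Ccnd2, at 68.3, ranked 3 of 6 in the forebrain sum, at 58.2, and highest in the Müller glia and mesenchyme sums, at 907 and 29.4. The forebrain sums above it, 210 and 86.8, were again those of the organoids next in Ccnd2, at 56.3 and 32.4. Between the extremes of D25, organoids with Ccnd2 of 96.3, 82.3, 55.3 and 29.7 had forebrain sums of 177, 88.9, 113 and 41.5. Between those of D30, Ccnd2 of 195, 179, 158 and 142 stood beside forebrain sums of 179, 214, 186 and 60.9. The Müller glia sums of these D30 organoids were 2933, 3783, 2917 and 2386. Over the whole lists, 8 of 10 Müller glia genes and 5 of 6 mesenchyme genes rose from D20 to D30, beside 4078 of 16253 annotated genes. Of the 6 forebrain genes 0 passed for that interval in edgeR's or DESeq2's test, with 2 higher at an unadjusted p below 0.05. From D22 to D25 1 of the 6 rose, Neurod6 (4.49 ± 1.05, adjusted p = 0.00466 in edgeR's test), and the median of the list was 1.94. At that step 4 of 10 Müller glia genes and 1 of 6 mesenchyme genes rose, beside 1191 of 16253 annotated genes. The forebrain sum averaged 70.8 for D20, 19.8 for D22, 126 for D25 and 146 for D30. No gene of these lists was at 0 in all 6 organoids of any timepoint. With the organoid highest in forebrain markers left out at each timepoint, a choice made after the data had been seen, Ccnd2 rose by 2.23 from D20 to D30 (adjusted p = 0.000297) and by 2.23 from D22 to D25 (adjusted p = 0.00243). With the organoids highest in pigment epithelium or mesenchyme markers left out instead, the rise from D20 to D30 was 2.20 (adjusted p = 0.00179) or 2.55 (adjusted p = 0.000302). At D30 the organoids kept in these fits still had forebrain sums of up to 214, pigment epithelium sums of up to 2485 and mesenchyme sums of up to 257. The part of these cells in the rise of Ccnd2, and that of the Müller glia, was therefore not tested. A pair of antisense genes shares 3.91% and 3.95% of the exon bases of Ccnd2, and their mean levels were at most 0.419 normalized CPM.

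**Figure D2:**
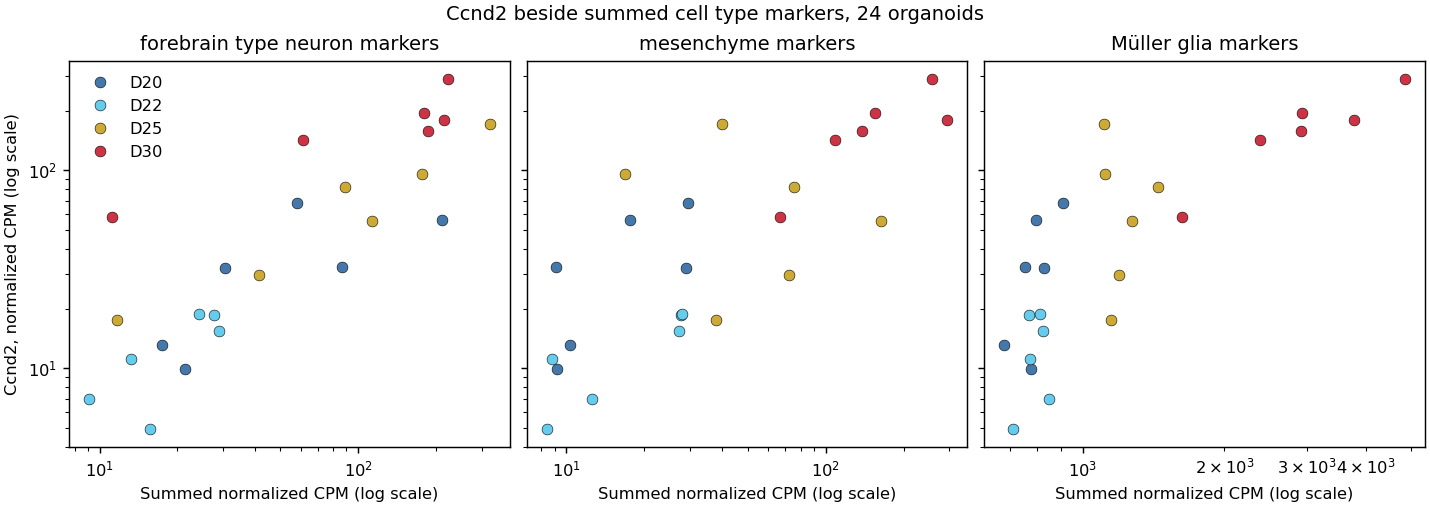
Normalized CPM of Ccnd2 (y axis, log scale) against the summed normalized CPM of 3 marker lists (x axes, log scale) in the 24 organoids, colored by timepoint. The D30 organoid with the least Ccnd2, at 57.8, sits lowest of its age on all 3 x axes.

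Ccnd3 (chr17:47505051-47599691, plus strand) moved little. Its mean was 27.5 ± 2.85 normalized CPM for D20, 21.7 ± 1.56 for D22, 18.7 ± 3.42 for D25 and 22.0 ± 4.78 for D30 (SD, n = 6). All D22 organoids were below all D20 organoids, but the log2 fold change of -0.34 ± 0.13 did not pass (adjusted p = 0.153), and no other step did. Its joint test passed narrowly (adjusted p = 0.00974 in edgeR's test), and that call was lost in 19 of the 24 fits without a single organoid and in 5 of the other alternatives. Among the single omissions it held without replicate 1 of D22, replicate 3 or 5 of D25, or replicate 1 or 5 of D30. Bysl, on the opposite strand, shares 4.11% of its exon bases.

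Per kilobase of exon, the leading D cyclin changed between D20 and D30. The length used is that of all annotated exons of a gene joined, 4709 bases for Ccnd1, 9409 for Ccnd2 and 8775 for Ccnd3. It can exceed the length of the transcripts present, so the shares and ratios below depend on it. Without division by length, the lowest Ccnd2 at D30, 57.8 normalized CPM, was also above the highest Ccnd1, 32.6. Ccnd1 made up 81.3% ± 7.83 of their summed CPM per kb for D20, 83.3% ± 1.84 for D22, 53.8% ± 15.5 for D25 and 22.6% ± 9.68 for D30 (SD, n = 6). Ccnd2 made up 10.3% ± 7.53, 5.64% ± 2.20, 35.2% ± 18.6 and 67.0% ± 13.0 at the same times, and Ccnd3 between 8.33% and 11.1%. Ccnd2 exceeded Ccnd1 in 0 of 6 organoids of either D20 or D22, in 1 of 6 of D25 and in all 6 of D30, where the ratio of Ccnd2 to Ccnd1 ran from 1.06 to 6.15. The summed level of the 3 genes was 37.9 ± 3.50 CPM per kb for D20, 23.0 ± 3.40 for D22, 20.7 ± 6.19 for D25 and 26.0 ± 8.09 for D30 (SD, n = 6). The lowest sum at D20, 31.8, was above the highest at D22 and D25 and below the highest at D30, 38.2.

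**Figure D3:**
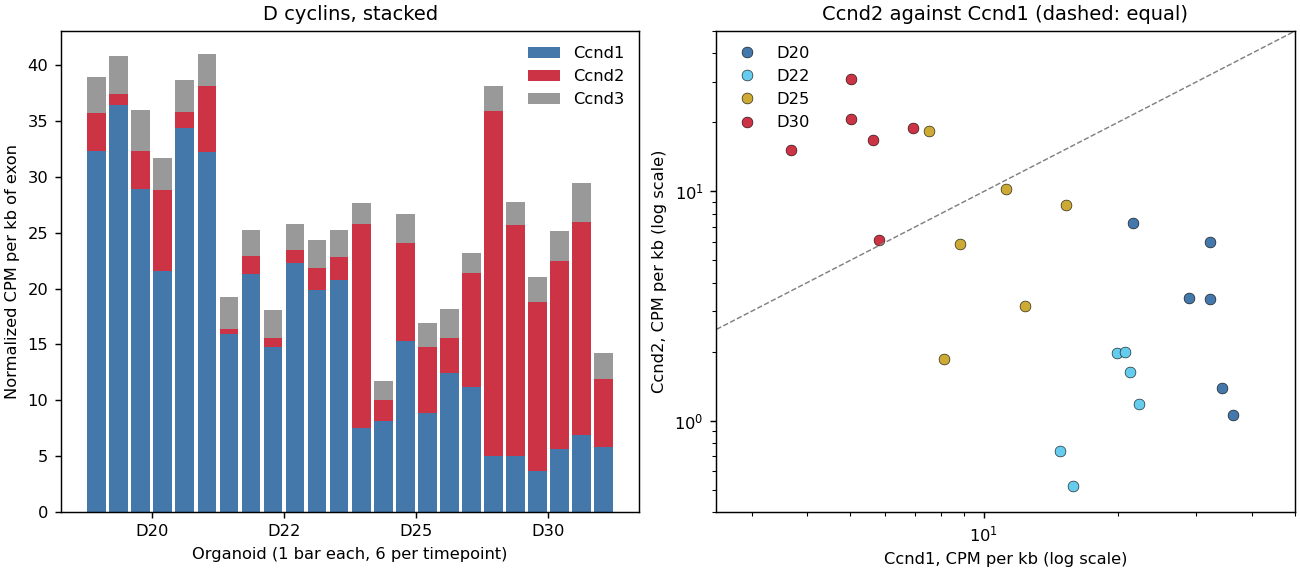
Left, the 3 D cyclins in normalized CPM per kb of exon (y axis, linear), stacked, with 1 bar for each of the 24 organoids. Right, Ccnd2 against Ccnd1 in CPM per kb (both axes log scale), where all 6 D30 organoids and 1 D25 organoid lie above the dashed line of equal levels.

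The E cyclins did not pass the test in any of the 4 comparisons. Ccne1 (chr7:38097984-38107534, minus strand) had 7.04 to 9.39 normalized CPM at D20 with a median of 8.02, 4.68 to 6.44 at D22 with a median of 4.97, 6.90 to 9.85 at D25 with a median of 7.56 and 4.32 to 7.84 at D30 with a median of 6.30. All D22 organoids were below all those of D20 and of D25. The joint test passed (adjusted p = 0.00486), whereas the log2 fold change into D22 (-0.64 ± 0.17, adjusted p = 0.0238) and that out of it (0.62 ± 0.17, adjusted p = 0.0165) each missed the threshold in edgeR's test and passed it in DESeq2's. The joint call was lost without replicate 5 or 6 of D22 and without replicate 3 or 4 of D25, with no filter on low counts, and with the organoids highest in forebrain, pigment epithelium or mesenchyme markers left out. Ccne2 (chr4:11191351-11204779, plus strand) averaged 16.8 ± 4.84 normalized CPM for D20, 11.1 ± 2.73 for D22, 14.3 ± 5.87 for D25 and 12.4 ± 0.887 for D30 (SD, n = 6). Its ranges overlapped between all timepoints, its joint test did not pass (adjusted p = 0.131), and 17.4% of its exon bases are shared with Ints8 on the opposite strand. Per kilobase Ccne2 was the larger of the pair on average at every timepoint, with 55.6% to 61.2% of their sum.

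Among the Cip/Kip inhibitors, Cdkn1a (chr17:29090976-29100727, plus strand), which encodes p21 and is a textbook target of p53, had the largest fitted fall. Its normalized CPM ran from 17.5 to 34.8 with a median of 28.3 at D20, from 9.35 to 24.6 at D22, from 5.37 to 10.3 with a median of 7.62 at D25, and from 3.36 to 9.98 with a median of 7.50 at D30. All D25 and all D30 organoids were below all D20 organoids, and the ranges of D25 and D30 overlapped widely (-0.05 ± 0.23, adjusted p = 0.952). The log2 fold change was -1.88 ± 0.23 from D20 to D30 (adjusted p = 1.41e-07), -0.83 ± 0.23 from D20 to D22 (adjusted p = 0.0275) and -1.0 ± 0.23 from D22 to D25 (adjusted p = 0.00428). The step from D22 to D25 was no longer called without replicate 1 or 6 of D22 or replicate 1, 4 or 6 of D25 (log2 fold changes of -0.98 to -0.82, adjusted p = 0.0112 to 0.0207), nor with the organoids highest in pigment epithelium (adjusted p = 0.0641) or mesenchyme markers (adjusted p = 0.0678) left out. The step from D20 to D22 was called without replicate 6 of D22 (-1.02, adjusted p = 0.00499).

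Cdkn1c (chr7:143458339-143461050, minus strand), an imprinted gene that encodes p57, fell at the first step and over the whole interval. It had 14.4 to 30.7 normalized CPM at D20 with a median of 22.3, 8.56 to 15.4 at D22 with a median of 10.9, 6.58 to 13.3 at D25 with a median of 10.7 and 4.90 to 12.3 at D30 with a median of 7.53. The ranges of D22, D25 and D30 overlapped widely, and D20 was apart from D25 and D30. Its log2 fold change was -0.98 ± 0.21 at the first step (adjusted p = 0.00505) and -1.51 ± 0.22 over the whole interval (adjusted p = 1.57e-06), and the later steps did not pass. The call for D22 was lost without replicate 1, 3 or 4 of D20 or replicate 2, 3 or 5 of D22 (-0.98 to -0.87, adjusted p = 0.0115 to 0.0191), and with the organoids highest in forebrain or pigment epithelium markers left out. An antisense gene, Gm44732, covers 30.7% of its exon bases on the opposite strand, and no value for it was analysed here.

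Cdkn1b (chr6:134920401-134925513, plus strand), which encodes p27, had a smaller fitted change. Its mean was 203 ± 22.7 normalized CPM for D20, 212 ± 30.7 for D22, 167 ± 7.47 for D25 and 156 ± 24.1 for D30 (SD, n = 6). All D25 organoids, at 158 to 179, were below all D22 organoids, at 182 to 251, although that step missed the threshold (-0.34 ± 0.10, adjusted p = 0.0238). From D20 to D30 the log2 fold change was -0.39 ± 0.10 (adjusted p = 0.00288), and this call did not hold without replicate 6 of D30 (-0.32, adjusted p = 0.0101), in DESeq2's test (-0.32, adjusted p = 0.0149), with DESeq2's size factors (-0.32, adjusted p = 0.0150) or with no filter on low counts (-0.37, adjusted p = 0.0111). It was also lost with the organoids highest in mesenchyme markers left out (-0.37, adjusted p = 0.0126).

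Per kilobase of exon the 3 Cip/Kip genes summed to 63.4 ± 3.69 CPM per kb for D20, 56.5 ± 8.81 for D22, 44.0 ± 2.95 for D25 and 40.2 ± 6.02 for D30 (SD, n = 6). Cdkn1b made up 70.5% ± 7.32 of that sum at D20 and 85.2% ± 3.13 at D30, while Cdkn1a went from 12.1% ± 2.95 to 5.25% ± 1.82 and Cdkn1c from 17.3% ± 4.78 to 9.59% ± 2.44. Cdkn1b was thus the most abundant of the 3 at each timepoint.

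Upstream sequence is shown for the Cip/Kip gene with the largest fitted fall and for the one with the highest level per kilobase. RefSeq promoter windows on GRCm38.p6 were matched for Ccnd3, Ccne1, Cdkn1a, Cdkn1b and Cdkn2c, with 8 windows in all, and not for Ccnd1, Ccnd2, Ccne2, Cdkn1c and Rb1. The windows below are the 250 bases before an annotated start, chr17:29090729-29090978 on the plus strand for the upstream start of Cdkn1a and chr6:134920151-134920400 on the plus strand for Cdkn1b. Capitals mark a pair of CATG cores with 6 bases between them in Cdkn1a, as in the binding element of p53, and a GC box (GGGCGG, searched on both strands) in Cdkn1b.
Cdkn1a: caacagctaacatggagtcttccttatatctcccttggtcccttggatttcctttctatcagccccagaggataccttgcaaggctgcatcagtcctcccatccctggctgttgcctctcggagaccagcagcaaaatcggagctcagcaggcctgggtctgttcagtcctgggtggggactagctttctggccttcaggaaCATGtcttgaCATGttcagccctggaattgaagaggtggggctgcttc
Cdkn1b: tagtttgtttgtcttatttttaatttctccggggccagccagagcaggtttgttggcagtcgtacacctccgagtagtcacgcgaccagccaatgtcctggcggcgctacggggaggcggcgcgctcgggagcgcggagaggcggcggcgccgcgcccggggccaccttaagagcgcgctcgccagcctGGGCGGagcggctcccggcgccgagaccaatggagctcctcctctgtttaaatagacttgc
The paired CATG core was chosen after the window had been read, starts 48 bases before the start of Cdkn1a, and occurs in 0.490% of 32851 windows of the same length. The window of the other Cdkn1a start, chr17:29093519-29093768, holds GC boxes and no such pair. A GC box was found in 6 of the 8 windows, which cover all 5 matched genes, and in 32.7% of all windows. The E2F motifs TTTCCCGC, TTTGGCGC and TTTCGCGC, searched on both strands, were in 0 of the 8 windows and in 1.53% of all windows. These matches describe letters in a window and were not tested for binding.

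The Ink4 inhibitor Cdkn2c (chr4:109660876-109667189, minus strand) was lowest on average at D22 and highest at D30. It had 5.41 to 11.7 normalized CPM at D20 with a median of 8.50, 3.01 to 7.32 at D22 with a median of 5.40, 4.25 to 11.1 at D25 with a median of 8.19 and 9.04 to 14.6 at D30 with a median of 12.4. Neighbouring timepoints overlapped, whereas the lowest D30 organoid was above the highest D22 organoid. The joint test passed (adjusted p = 0.00141), but no single comparison made here did, with log2 fold changes of -0.67 ± 0.23 for D22 against D20 (adjusted p = 0.0917), 0.57 ± 0.23 for D25 against D22 (adjusted p = 0.109), 0.58 ± 0.22 for D30 against D25 (adjusted p = 0.129) and 0.49 ± 0.22 over the whole interval (adjusted p = 0.0860).

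Rb1 (chr14:73183673-73325822, minus strand) did not pass the test in any comparison. Its mean was 68.6 ± 5.60 normalized CPM for D20, 72.4 ± 7.45 for D22, 82.1 ± 5.97 for D25 and 76.7 ± 11.5 for D30 (SD, n = 6), with overlapping ranges at every step. The joint test did not pass (adjusted p = 0.145), and the log2 fold change from D20 to D30 was 0.16 ± 0.10 (adjusted p = 0.203). Lpar6, which lies on the opposite strand and shares 6.78% of the exon bases of Rb1, fell by 1.63 on the log2 scale over the same interval (adjusted p = 3.33e-11).

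**Figure D4:**
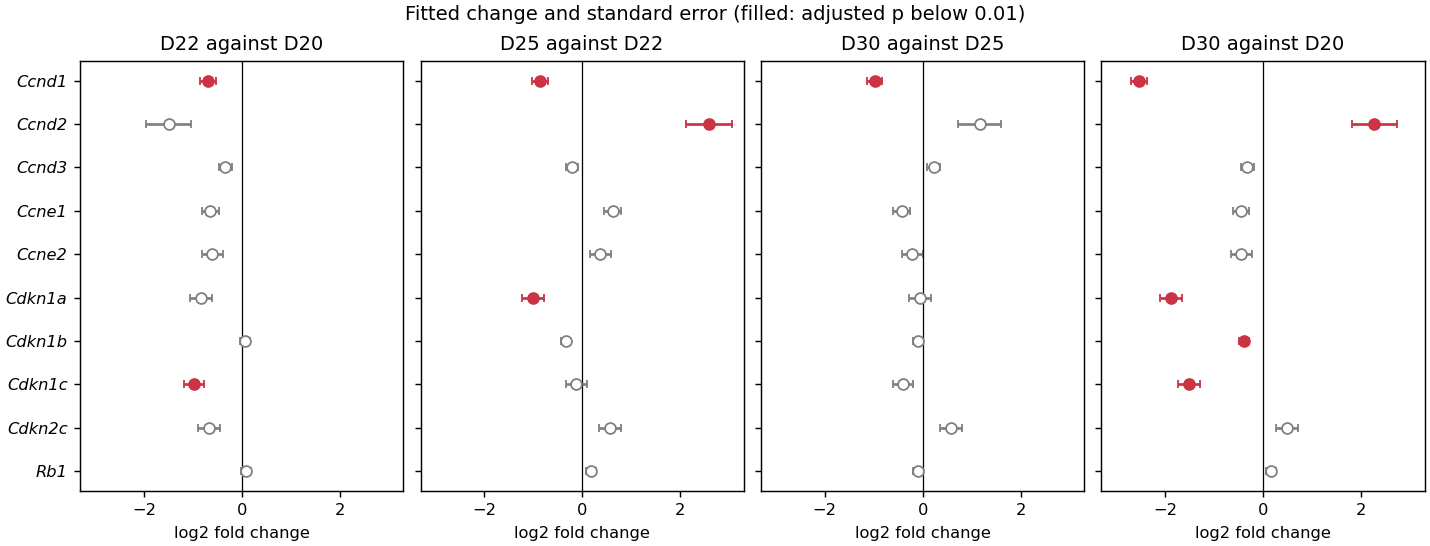
Fitted log2 fold change of each of the 10 genes (x axis) with its standard error, in 1 panel for each comparison, where filled points passed an adjusted p below 0.01 in edgeR's test. Ccnd1 was filled and below 0 in all 4 panels, and Ccnd2 was filled and above 0 in the panels for D25 against D22 and D30 against D20.

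The genes that act around the 10 members mostly fell or did not pass the test between D20 and D30, and no gene called in these 7 lists changed sign with DESeq2's size factors or with annotated genes only. The background for all these list counts is 2712 lower and 4078 higher among the 16253 annotated genes, or 41.8% called. Of the 7 G1 kinases and their activators, 5 fell and the other two did not pass. Cdk2, the partner of the E cyclins, averaged 12.2 ± 1.85 normalized CPM at D20 and 4.94 ± 1.47 at D30 (SD, n = 6), with a log2 fold change of -1.30 ± 0.22 (adjusted p = 1.5e-05), and Cdc25a, the phosphatase that activates it, fell by 1.20 ± 0.16 on the log2 scale (adjusted p = 5.5e-07). Among 4 other brakes that passed the filter 1 fell, the Rb1 relative Rbl1 (-0.72 ± 0.17, adjusted p = 0.000874).

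The E2F and DP factors split, with 5 of 10 lower and 2 higher. The activator E2f1 went from 44.0 ± 6.75 normalized CPM to 5.01 ± 1.45 (SD, n = 6), which is -3.14 ± 0.20 on the log2 scale (adjusted p = 1.11e-13), and the DP partner Tfdp2 fell by 1.81 ± 0.12 on the log2 scale (adjusted p = 3.64e-13). E2f3 rose by 0.45 ± 0.12 (adjusted p = 0.00220) and E2f6, a repressor, by 0.43 ± 0.13 (adjusted p = 0.00901). Of the 10 genes for the turnover of cyclins and brakes 4 fell and 2 rose, or 3 and 3 with DESeq2's test or size factors. Cks1b, the cofactor by which the ligase with Skp2 recognizes p27, fell by 1.47 ± 0.21 (adjusted p = 1.38e-06) and Dtl, the adaptor that directs p21 to Cul4 ligases, by 1.23 ± 0.26 (adjusted p = 0.000386), whereas Cul4a and Ddb1 of the same ligases rose by 0.42 ± 0.08 (adjusted p = 7.13e-05) and 0.23 ± 0.07 (adjusted p = 0.00562).

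Downstream, 7 of 13 E2F target genes of S phase fell, or 5 with DESeq2's test or size factors, and the others did not pass. The replication licensing genes Mcm3 (-1.18 ± 0.18, adjusted p = 5.73e-06) and Mcm6 (-1.16 ± 0.23, adjusted p = 0.000148) were among them. All 12 of the S and M phase cyclins, kinases and division genes fell, with a median log2 fold change of -1.52 beside -0.04 over all features. Top2a, the topoisomerase of dividing cells, went from 497 ± 108 to 145 ± 35.9 normalized CPM, and the division marker Mki67 from 430 ± 47.2 to 127 ± 25.7 (SD, n = 6). Their summed level was 1159 ± 192 for D20, 660 ± 208 for D22, 540 ± 262 for D25 and 364 ± 76.6 for D30, and at D25 it ran from 192 to 948 in single organoids. The organoid with the least Ccnd2 had the lowest division sum of its age at D22, at 438, and at D25, at 192, whereas at D20 the lowest division sum, 814, was that of the organoid with the most Ccnd2. At D30 the organoid with the most Ccnd2 had the highest division sum, at 507.

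Of the 13 genes in the list of p53 and its targets, 6 fell and the others did not pass. Trp53 itself fell by 0.77 ± 0.18 on the log2 scale (adjusted p = 0.000851), Eda2r, a receptor gene, by 2.11 ± 0.29 (adjusted p = 9.75e-07) and Btg2, an antiproliferative gene, by 1.72 ± 0.15 (adjusted p = 2.51e-10). Mdm2, the ligase that p53 induces against itself, had a log2 fold change of -0.00 ± 0.08 (adjusted p = 0.987).

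**Figure D5:**
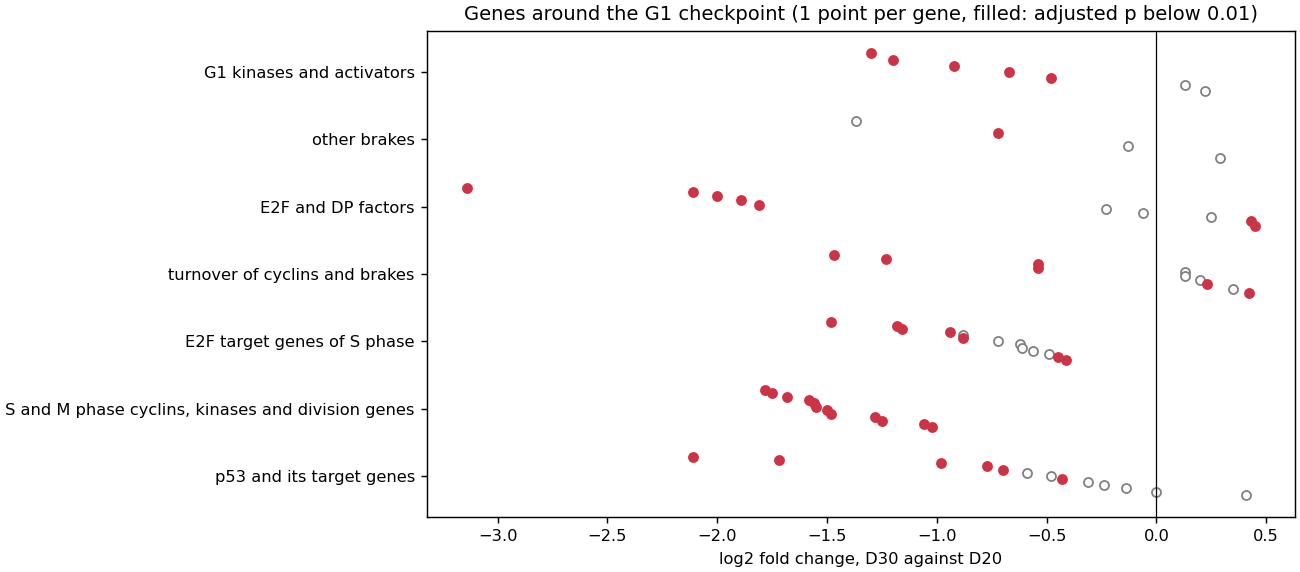
Log2 fold change from D20 to D30 (x axis) of each tested gene in 7 lists around the G1 checkpoint (y axis), 1 point per gene, filled where adjusted p was below 0.01 in edgeR's test. All 12 S and M phase genes are filled and left of 0, and E2f1 is the leftmost point at -3.14.

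The genes nearest in pattern to 7 of the members were found among 10154 protein coding genes by the root mean square difference in log2 normalized CPM over the 24 organoids, each gene centred on its own mean. For Ccnd1, whose own SD over the organoids was 1.02, they were Hes6, a neurogenic factor, Acss3 and Plagl1, at 0.29 to 0.30. Hes6 averaged 246 normalized CPM for D20, 149 for D22, 70.0 for D25 and 30.3 for D30. For Ccnd2, with an SD of 1.69, they were the receptor phosphatase Ptprz1, Fam49a and the phospholipase Plcb1, at 0.54 to 0.60, and Ptprz1 averaged 50.9, 24.4, 92.7 and 319 in the same order.

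For Cdkn1c (SD 0.68) they were Rpl10, Dph5 and Rps15a, at 0.34 to 0.35. Ribosomal protein genes have many near-identical copies, so their counts are uncertain. For Cdkn1b (SD 0.25) they were Zfp397, Zfp207 and Ogt, at 0.11 to 0.12, for Cdkn2c (SD 0.58) the chaperone Hsph1, Scoc and Frem2, at 0.33 to 0.35, for Ccnd3 (SD 0.29) the chaperonin subunit Cct5, Sod1 and Plpbp, at 0.17 to 0.18, and for Ccne1 (SD 0.35) Fam214b, Nt5c2 and Tesk1, at 0.23 to 0.25. Among the members themselves Ccnd1 was nearest to Cdkn1a, at 0.54, and farthest from Ccnd2, at 2.43.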

How the data were processed

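Total RNA of 24 single organoids was depleted of ribosomal RNA and sequenced as strand-specific libraries. Per the submitters' processing notes, the authors used bcl2fastq (2.20), cutadapt (1.5), HISAT2, StringTie (1.3.3) and HTSeq (0.6.1) on GRCm38, and deposited raw counts per annotated gene or assembled locus, without normalization. The strand setting of the counting is not given in the sources used here, so reads of overlapping genes on opposite strands may not be separated.

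Timepoints and replicate numbers came from the sample titles. Summary lines of the tables were left out. Features with a mean of at least 10 counts after DESeq2 (1.42.0) size factors were kept, which left 46949, of which 16253 are annotated. They were fitted with edgeR (4.0.16) in R (4.3.3), with TMM scaling and all 24 organoids in 1 model of timepoint, at a threshold of 0.01. Every pair of libraries of a timepoint differed by more than sampling noise, with a chi-square statistic of 6.09 or more per degree of freedom. The common biological coefficient of variation was 0.385. Symbols, coordinates and exon lengths came from GENCODE M21 (46091 of 46603 identifiers matched). The script was tested on simulated counts. Alternatives were DESeq2's test, its size factors, other filters, a fit of the annotated genes alone, a replicate block, separate fits of the timepoints compared, and the omission of each organoid, plus 3 omissions by markers that were added after the data had been seen.

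The members and gene lists were chosen with earlier results of these data known. For each pathway list the genes named are up to 2 that rose and 2 that fell most from D20 to D30, among called genes that averaged 100 normalized counts or more, and Trp53 and Mdm2 were added after their values were seen. For each member past the joint test the 3 nearest genes above the same average are named, with a prior count of 0.5, except for Cdkn1a, for which they are not reported here.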

Additional observations from a re-analysis of the deposited data

How the results depend on the processing

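The number of members called between D20 and D22 depended most on the processing. It was 2 as reported, 4 with DESeq2's test, which added Ccne1 and Cdkn1a, and 0 with the 4 organoids highest in forebrain type neuron or in pigment epithelium markers left out. Without a single organoid it ran from 0 to 3. The calls over all features moved too. They were 894 of 46949 as reported, 1605 of 46949 with DESeq2's test, and 566 of 46747 and 693 of 46791 with those 2 omissions. The counts for the other comparisons moved by at most 1.5 times. From D20 to D30, Ccnd3 (-0.41) and Ccne1 (-0.55) passed with annotated genes only, and Cdkn1b no longer passed with DESeq2's test (-0.32), DESeq2's size factors (-0.32), no filter on low counts (-0.37) or the 4 organoids highest in mesenchyme markers left out (-0.37). Without a single organoid the log2 fold change from D20 to D30 ran from -0.44 to -0.27 for Ccnd3, which passed without replicate 5 of D30, and from -0.45 to -0.32 for Cdkn1b. Values near 0 that had not passed changed sign. Cdkn1b from D20 to D22 became -0.05 and -0.03, and Cdkn1c from D22 to D25 0.02 and 0.04, with the organoids highest in pigment epithelium or mesenchyme markers left out. Cdkn1a from D25 to D30 became 0.00 with DESeq2's test and size factors, and without a single organoid ran from -0.15 to 0.11, with 0.05 without replicate 5 of D25 and 0.11 without replicate 3 of D30. Of the E2F and DP factors and of the turnover genes, 1 each rose from D20 to D30 with annotated genes only, instead of 2, and 1 of the other brakes rose with DESeq2's test or size factors, instead of 0. The cause was not tested. The replicate numbers name different organoids, and same-numbered organoids of different timepoints did not deviate together (correlations of -0.0833 to 0.214 over 36 pairs). With the number as a replicate block, 2 members were called from D22 to D25 instead of 3, since Cdkn1a missed the threshold (adjusted p = 0.0114), and 5 were called from D20 to D30. Over all features the block gave 2221 calls instead of 2478 from D22 to D25, and 12254 instead of 12592 from D20 to D30.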
